A study of Mus musculus with 8 samples.

Results

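Peaks of Ezh2, of histone H3 trimethylated at lysine 27 (H3K27me3) and of Runx1 were examined at the mouse genes for chemokines and chemokine receptors. The members were all protein-coding genes whose symbols start with Ccl, Ccr, Cxcl, Cxcr, Xcl, Xcr, Cx3cl or Cx3cr followed directly by a digit. They numbered 58 of 21887 protein-coding genes in the RefSeq gene table, and 57 of them, of 21774 in all, had a position on an assembled chromosome and were analysed. These 57 were 38 ligand genes and 19 receptor genes. Ccl21c, the remaining member, had no such position and was not analysed here.

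The cells were EML_C1, a mouse haematopoietic progenitor line that grows in stem cell factor and is labelled as C57BL/6, at an early passage and with no treatment or genetic change given in the labels. Chromatin immunoprecipitation and sequencing gave 2 libraries for each of the 3 antibodies, and 2 input libraries served as controls, 1 shared by Ezh2 and Runx1 and 1 for H3K27me3. The study looked at where Ezh2 and Runx1 bind and where the mark lies in these cells. For the Ezh2 and Runx1 libraries, DSG, a crosslinker that joins proteins, was followed by formaldehyde, and for H3K27me3 formaldehyde was used by itself. It is a single cultured line, and nothing states that the replicates of an antibody were separate cultures, so their spread may be technical. Peak lists hold no expression, so the cell label could not be checked against marker levels and a bound gene is not known to be expressed.

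Chemokines are small secreted proteins that guide cells along gradients. They act through receptors with a G protein of the Gi class, which leads to movement and to firmer adhesion by integrins. CXCL12 and its receptor CXCR4 keep haematopoietic progenitors in the marrow, and CCR7 and CCR9, with their ligands CCL19, CCL21 and CCL25, direct progenitors to the thymus. Most inflammatory chemokine genes lie in tandem clusters, as do the genes of many CC receptors. Ezh2 is the enzyme of Polycomb repressive complex 2, which sets H3K27me3, a mark of silent chromatin, and Runx1 is a DNA-binding factor needed for definitive blood formation.

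A member was called for an antibody at a gene end where the same window, 1 kb either side of that end, held a peak in both replicates. It was called over the gene span where both replicates had a peak between the 2 ends. The fold enrichment of a peak is the authors' value over input, and where several peaks fell in a window the highest was taken. Values are given as replicate 1 and replicate 2. With 2 replicates per antibody and no read totals, no test was made and the depth behind each peak is unknown. Folds of the broad H3K27me3 peaks and of the narrow Ezh2 and Runx1 peaks are not set against each other.

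The promoters below show the kinds of sequence that lie under or beside these peaks. They are the 250 bases before the start of 5 members in RefSeq's table on GRCm38.p6. Cxcr3, Ccr1 and Cx3cr1 carried Runx1 at the start and nothing else, Cxcr4 carried all 3 antibodies, and Cxcl10 carried Ezh2 and the mark without Runx1. Capitals mark each match to the RUNX motif, TGTGGT or TGCGGT on either strand.
Cxcr3, chrX:101734148-101734397, minus strand: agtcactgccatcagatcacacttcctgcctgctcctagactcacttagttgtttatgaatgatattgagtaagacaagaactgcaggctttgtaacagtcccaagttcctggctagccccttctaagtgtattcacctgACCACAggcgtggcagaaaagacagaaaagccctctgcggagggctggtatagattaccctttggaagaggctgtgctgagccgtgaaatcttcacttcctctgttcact
Ccr1, chr9:123968693-123968942, minus strand: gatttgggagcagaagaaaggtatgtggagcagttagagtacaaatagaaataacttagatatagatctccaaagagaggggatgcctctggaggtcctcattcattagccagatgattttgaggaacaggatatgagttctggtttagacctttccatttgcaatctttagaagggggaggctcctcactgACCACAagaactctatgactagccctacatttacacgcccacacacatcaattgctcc
Cx3cr1, chr9:120068297-120068546, minus strand: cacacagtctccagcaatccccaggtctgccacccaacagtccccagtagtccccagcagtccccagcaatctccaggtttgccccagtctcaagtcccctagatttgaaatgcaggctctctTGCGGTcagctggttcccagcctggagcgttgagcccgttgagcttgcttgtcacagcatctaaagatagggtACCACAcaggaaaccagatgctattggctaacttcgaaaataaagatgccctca
Cxcr4, chr1:128592300-128592549, minus strand: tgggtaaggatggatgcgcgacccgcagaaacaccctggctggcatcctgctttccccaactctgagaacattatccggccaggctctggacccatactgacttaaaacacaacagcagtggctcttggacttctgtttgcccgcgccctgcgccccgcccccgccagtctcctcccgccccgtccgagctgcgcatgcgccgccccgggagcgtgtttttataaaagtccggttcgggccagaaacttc
Cxcl10, chr5:92348890-92349139, minus strand: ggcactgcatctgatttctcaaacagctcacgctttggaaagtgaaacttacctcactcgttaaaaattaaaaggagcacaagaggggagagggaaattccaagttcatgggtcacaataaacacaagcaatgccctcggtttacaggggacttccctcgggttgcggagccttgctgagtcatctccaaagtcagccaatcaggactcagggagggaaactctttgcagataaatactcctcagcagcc

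The share of chemokine genes with Runx1 was below that of all genes. Runx1 was called at an end of 18 of 57 members (31.6%), against 45.5% of all protein-coding genes, and over the span of 22 (38.6%), against 58.3%. Ezh2 was called at an end of 12 members (21.1%), against 18.5%, and H3K27me3 at an end of 18 (31.6%), against 30.7%, both near the share of all genes. Over the span, 14 members had Ezh2 (24.6%, against 29.6%) and 20 had the mark (35.1%, against 38.1%). No antibody was called at an end of 25 members (43.9%, against 28.4%), and 19 (33.3%, against 17.6%) had none at an end or over the span. Member genes were short, with a median length of 5202 bp against 17219 bp for all protein-coding genes, and the part of length in these shares was not tested. Over summed spans the order was the other way round. Runx1 peaks covered 3.12% and 3.46% of the members' summed spans, against 1.37% and 1.44% for all genes. The median share of a gene's own span under Runx1 peaks kept the order of the counts. It was 0% and 0% for members, against 0.987% and 0.996% for all genes. Summed shares of Ezh2 and of H3K27me3 were also higher in members, in both replicates. For Ezh2 they were 3.78% and 3.47%, against 2.87% and 2.44% for all genes. For H3K27me3 they were 19.3% and 10.7%, against 15.02% and 9.09%. A higher sum was thus seen for all 3 antibodies, but in proportion to the share of all genes it was most raised for Runx1. These differences were not tested.

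**Figure D1:**
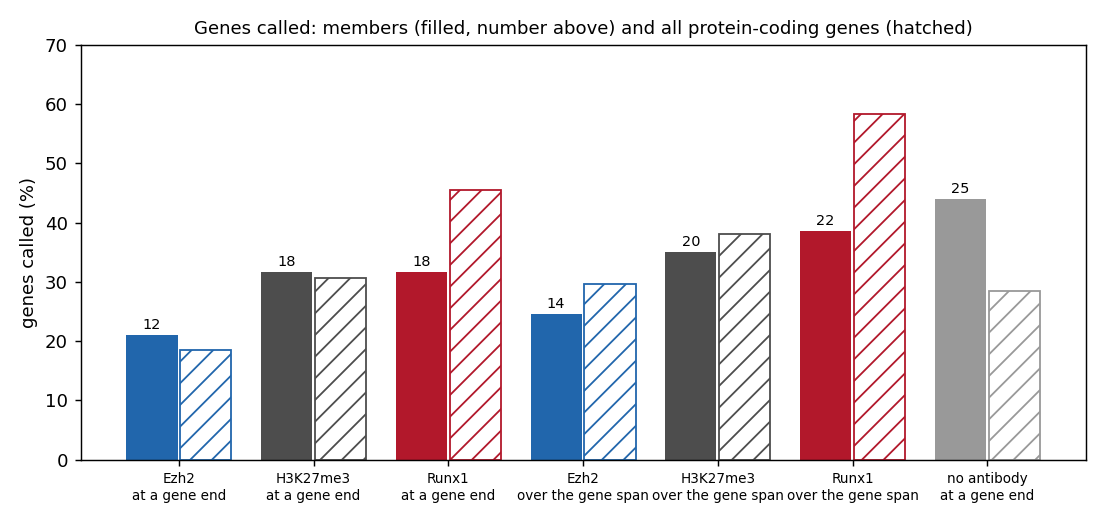
Percentage of genes called in both replicates, for the 57 members (filled bars, with the number of members above) and for all 21774 placed protein-coding genes (hatched bars). Runx1 bars of the members (31.6% at an end, 38.6% over the span) stand below those of all genes (45.5% and 58.3%), while the Ezh2 and H3K27me3 pairs differ by less.

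The combinations of antibodies at gene ends fell into a few classes. Runx1 alone was called at 13 members (22.8%), against 38.8% of all genes. Ezh2 and H3K27me3 together were called at 11 (19.3%, against 16.4%), of which 7 had no Runx1 (12.3%, against 12.6%). The mark without either protein was called at 7 members (12.3%, against 12.9%), and Ezh2 without the mark or Runx1 at none (0%, against 0.625%). All 3 antibodies were called at Cxcr4, Cxcl9, Ccl26 and Ccr10, which is 7.02% of members against 3.78% of all genes. These were also all 4 members with Runx1 and the mark (background 5.23%), and with Ccl22 they made 5 with Runx1 and Ezh2 (8.77%, against 5.26%). Ccl22 was the 1 member with both proteins and no mark (1.75%, against 1.48%), and Runx1 and the mark without Ezh2 were at none (0%, against 1.45%). Calls of different antibodies at a gene need not share an end: the 3 antibodies shared an end at Cxcr4, Ccl26 and Ccr10, but at no end of Cxcl9.

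The calls were also counted by role. Of 38 ligand genes, Ezh2 was at an end of 10 (26.3%), H3K27me3 of 14 (36.8%) and Runx1 of 9 (23.7%), and 17 had none. Among the 19 receptor genes, 2 had Ezh2 (10.5%), 4 had the mark (21.1%) and 9 had Runx1 (47.4%), and 8 had none. The shares of all genes were 18.5% for Ezh2, 30.7% for the mark and 45.5% for Runx1. By family, the 24 CC ligand genes had 5 with Ezh2, 7 with the mark and 5 with Runx1, and the 12 CXC ligand genes had 4, 5 and 4. The 11 CC receptor genes had 1 with Ezh2, 1 with the mark and 4 with Runx1, and the 6 CXC receptor genes had 1, 3 and 3. These are counts of few genes, several of which lie side by side, and the difference between ligands and receptors was not tested.

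**Figure D2:**
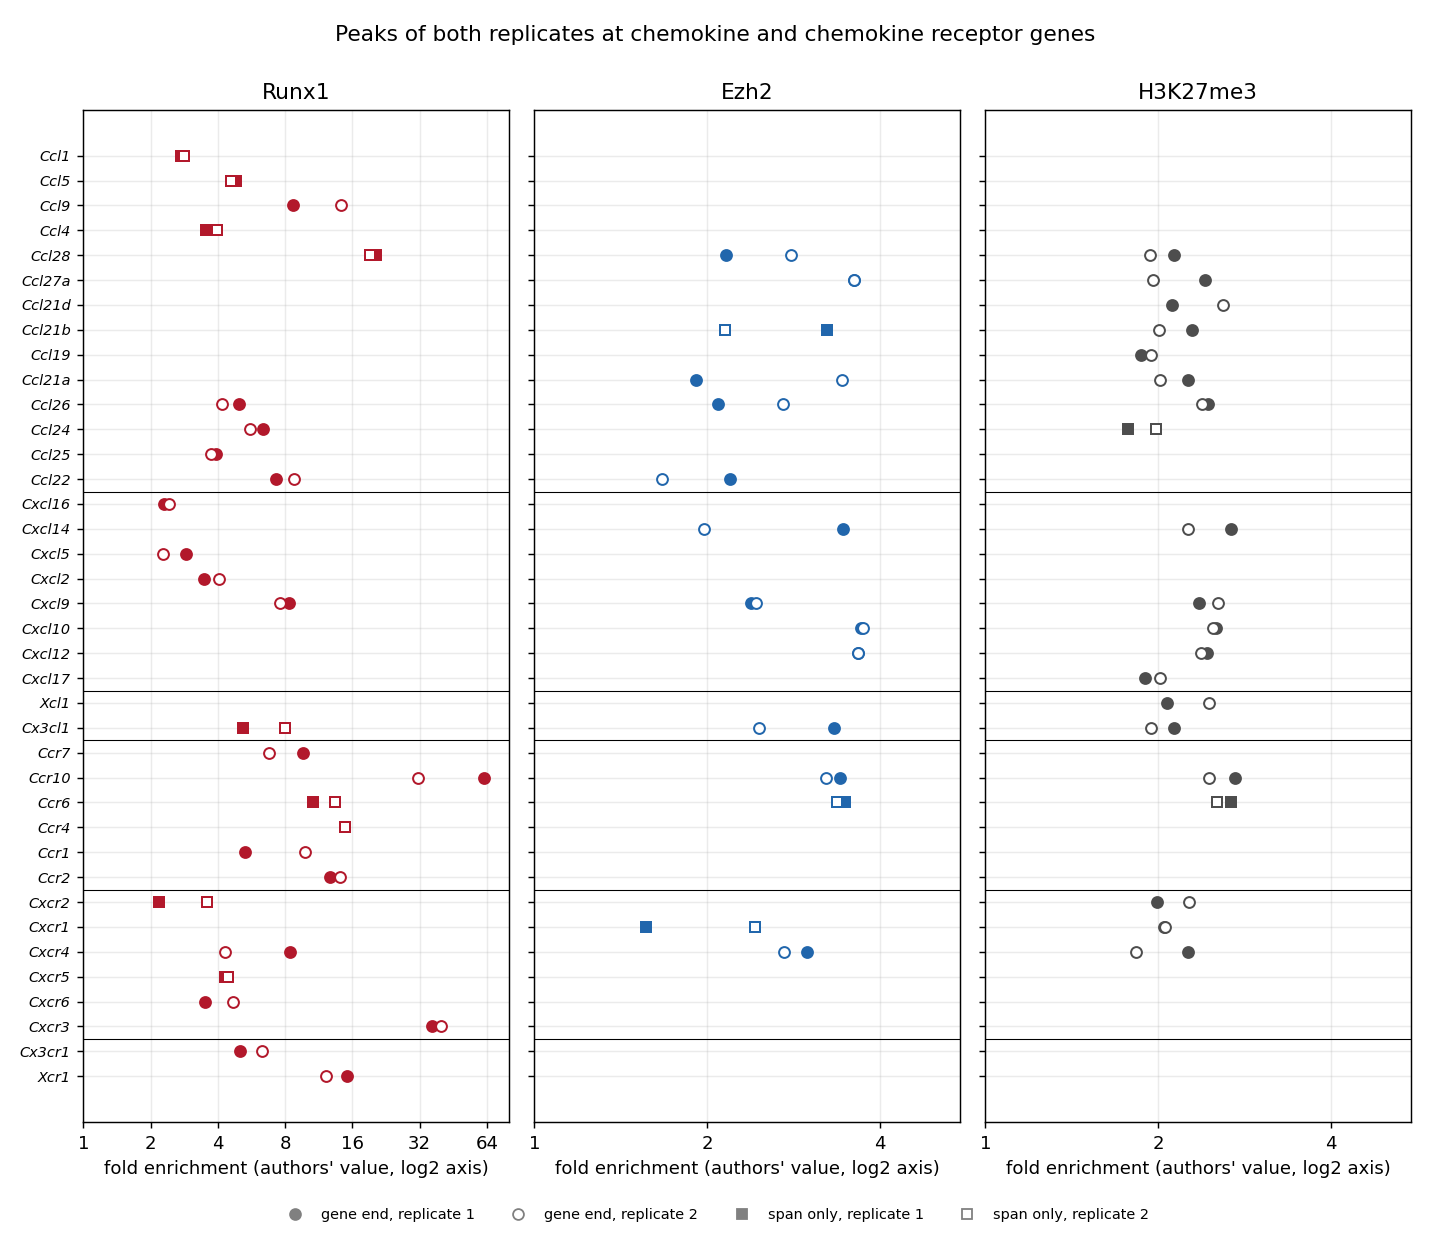
Fold enrichment of the highest peak in replicate 1 (filled) and replicate 2 (open) for each member called, on log2 axes, with circles for calls at a gene end and squares for members called over the span only; lines separate CC ligands, CXC ligands, other ligands, CC receptors, CXC receptors and other receptors. Among calls at an end, the highest Runx1 point is replicate 1 of Ccr10 (61.9) and the lowest is replicate 2 of Cxcl5 (2.28); values are to be read within a panel and not across antibodies.

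Receptor genes, Ccr10, Cxcr3, Xcr1 and Ccr2, had the 4 highest mean Runx1 folds at an end. The Ccr10 and Xcr1 summits lay outside those genes and nearer to an end of another gene. Cxcr3, a receptor of effector T cells for CXCL9 and CXCL10, had Runx1 folds of 36.3 and 39.9 at its start (38.1 ± 2.5, SD, n = 2). Its summits lay 86 and 89 bp inside the gene, 193.5 and 196.5 bp from the middle of the RUNX motif capitalised above. Another RUNX motif began 11 bp past the start, nearer to those summits and outside the printed bases. The peak covered all 250 bases printed above in both replicates, along with 50.3% and 34.1% of the gene span. The replicates were close, and neither Ezh2 nor the mark had a region in both replicates within 100 kb, the nearest being 458553 bp and 115107 bp away.

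Ccr10, the receptor of skin-homing and mucosal lymphocytes, had the highest mean Runx1 fold within 1 kb of a member's end, with uneven values of 61.9 and 31.55 (46.7 ± 21.5). In replicate 2 Cxcr3 was the higher of the 2 genes. That peak lay beside the gene rather than in it. Its summits were 1523 and 1600 bp outside Ccr10 and 97 and 20 bp from an end of Plekhh3, the neighbouring gene. Over the span of Ccr10 itself Runx1 had folds of 7.57 and 7.98, with a summit gap of 6 bp between replicates. The gene end nearest to those summits was that of Cntnap1, 678 and 684 bp away. By the mean of both replicates, Cxcr3 and Ccr10 were the 2 members above the 90th percentile of Runx1 end folds over all called genes, 32.2. The members' median was 6.96, against 7.499 for all 9910 called genes.

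Ccr7, the receptor that guides progenitors and dendritic cells by CCL19 and CCL21, carried its main Runx1 peak inside the gene. This peak had folds of 25.4 and 27.7 (26.5 ± 1.61), with summits 3811 and 3802 bp from the nearer end. A lower peak with folds of 9.63 and 6.76 lay 1469 and 1347 bp outside the end with the lower coordinate. Neither Ezh2 nor the mark was called at Ccr7. Ccr9, the gut and thymus receptor for CCL25, differed from it, with no call for any antibody. The nearest Runx1 region of both replicates was 6000 bp from Ccr9 and the nearest Ezh2 region 288657 bp.

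Other receptor genes with Runx1 at an end had folds between 3.52 and 15.1. Ccr2, the monocyte receptor for CCL2, had folds of 12.7 and 14.1 at its far end, with summits 567 and 548 bp inside it. Another Runx1 region inside Ccr2 had folds of 9.63 and 11.1, with the replicate 1 summit 1313 bp past the start. Only its replicate 1 peak reached within 1 kb of the start. Xcr1, a receptor of cross-presenting dendritic cells, had folds of 15.1 and 12.2, but these summits were 289 and 331 bp beyond its far end and nearer to an end of Fyco1 (127 and 85 bp). Ccr1, a receptor of neutrophils and monocytes for CCL3 and CCL5, had folds of 5.28 and 9.86 at its start. Here replicate 2 was the higher, and the summits lay 64 and 28 bp before the start, 8.5 and 27.5 bp from the middle of the RUNX motif capitalised above. At Cx3cr1, a receptor of monocytes and microglia, the folds were 5.01 and 6.33, and the summits lay 86 and 80 bp before the start, 34.5 and 28.5 bp from the middle of the nearer of its 2 motifs. Cxcr6 had folds of 3.52 and 4.67 just beyond its far end, in a region centred inside the span of Fyco1.

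Cxcr4 was the one CXC receptor gene with all 3 antibodies. Its Runx1 folds were 8.38 and 4.32 (6.35 ± 2.87), with summits 103 and 62 bp before the start. Replicate 1 was the higher, yet the summits were 41 bp apart. The Ezh2 folds were 2.98 and 2.73 (2.85 ± 0.178). There the summits of the highest peaks were 832 bp apart, 1 of them 4 bp before the start and the other 828 bp inside the gene. The Ezh2 call was kept where peaks of both replicates had to overlap each other. The mark had folds of 2.25 and 1.83. Its replicate 1 peak covered 3233 bp and held 1 Ezh2 region and 2 Runx1 regions. The replicate 2 peak covered 741 bp inside the gene and did not reach the start. The promoter of Cxcr4 held 20 CpG pairs in 300 bases and no RUNX motif of the letters searched.

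Receptor genes with Runx1 over the span and not at an end numbered 4, of 9 members in all (15.8%, against 14.6% of all genes). Ccr4, a receptor of Th2 and skin-homing T cells, had folds of 14.78 and 14.82, with summits more than 4 kb from the nearer end. Those summits also lay more than 4 kb before the 1 start known for Ccr4, which is inside its span. Ccr6, a receptor of Th17 cells and B cells, had folds of 10.7 and 13.4, and it also carried Ezh2 (3.47 and 3.36) and the mark (2.68 and 2.53) over the span, so all 3 antibodies were called within that gene. Cxcr5, the follicular homing receptor, had Runx1 folds of 4.31 and 4.43, and Cxcr2, a neutrophil receptor, had 2.17 and 3.59. The mark was called at an end of Cxcr2 (1.99 and 2.27) and of its neighbour Cxcr1 (2.05 and 2.05), and Ezh2 peaks of both replicates lay in Cxcr1 (1.57 and 2.42) but 1610 bp apart.

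Of Cxcl12, Ccl19, Ccl21a and Ccl25, ligands for marrow and thymic homing, Runx1 was called at an end of 1, Ccl25. Cxcl12, the ligand of CXCR4, had Ezh2 folds of 3.66 and 3.65 (3.66 ± 0.00667) at its far end and mark folds of 2.43 and 2.37. A region of the mark of 7344 bp there held 4 Ezh2 regions, and the nearest Runx1 region was 59959 bp away. Ccl19 and Ccl21a, the ligands of CCR7, carried the mark, with folds of 1.86 and 1.94 at Ccl19 and of 2.25 and 2.01 at Ccl21a. Ezh2 was called at Ccl21a with uneven folds of 1.91 and 3.44, and Runx1 was at neither. Ccl25, the ligand of CCR9, had Runx1 folds of 3.91 and 3.71 at its start, where the summits lay 10 and 48 bp from an end of Elavl1, which abuts it.

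The ligands of CXCR3 among the members, Cxcl9 and Cxcl10, lie side by side, and both carried Ezh2 and the mark. Cxcl10, an interferon-induced gene, had the highest Ezh2 fold at an end among members, 3.70 and 3.74 (3.72 ± 0.0239), with summits 28 bp before and 44 bp after its start. The mark had folds of 2.52 and 2.49, and in replicate 1 its peak spanned 29361 bp, with 9 Ezh2 regions and no Runx1 region inside it. Replicate 2 had a peak of 2098 bp at the same start. Cxcl9, its neighbour, had Ezh2 folds of 2.39 and 2.43 at the far end and of 4.52 and 3.56 inside the gene, mark folds of 2.35 and 2.54, and Runx1 folds of 8.33 and 7.57 (7.95 ± 0.536) within the gene, 535 and 512 bp from the start. The Ezh2 regions lay mostly in a mark region of 7532 bp over the far part of the gene, while the Runx1 region lay in another of 2826 bp over its start.

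Further ligand genes carried Ezh2 and the mark. Cxcl14, a homeostatic chemokine of epithelia, had mark folds of 2.68 and 2.26 in a region of 15241 bp with 6 Ezh2 regions, and Ezh2 end folds of 3.45 and 1.97. Ccl27a, a skin chemokine that acts on CCR10, had Ezh2 folds of 3.60 and 3.60 and mark folds of 2.41 and 1.96 in a region of 4206 bp with 3 Ezh2 regions. Cx3cl1, the membrane-bound ligand of CX3CR1, had Ezh2 folds of 3.33 and 2.47 and mark folds of 2.13 and 1.94 at its start. It also had a Runx1 peak of 5.17 and 7.996 in the gene, 7196 and 7200 bp from that start. Ccl28, a mucosal ligand of CCR10, was similar, with Ezh2 folds of 2.16 and 2.79 and mark folds of 2.13 and 1.94 near its start and Runx1 folds of 20.5 and 19.2 (19.8 ± 0.898) about 8 kb into the gene, the highest of any ligand gene.

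Ccl26 and Ccl24, eosinophil chemokines that act on CCR3, lie side by side on chromosome 5. At Ccl26 Runx1 had folds of 4.97 and 4.16, Ezh2 of 2.09 and 2.71 and the mark of 2.45 and 2.39. At Ccl24 Runx1 had 6.40 and 5.56 at an end, and the mark was called over the span with folds of 1.77 and 1.98. The Ezh2 call at Ccl26 rests on peaks 957 bp apart, and it was lost where peaks of both replicates had to overlap each other. Ccl22, a ligand of CCR4, had Runx1 folds of 7.28 and 8.81 at its far end and an Ezh2 call at its start with folds of 2.19 and 1.67, which was lost in the same way. The other ligand genes with Runx1 at an end were Ccl9 (8.70 and 14.2), Cxcl2 (3.45 and 4.03), Cxcl5 (2.89 and 2.28) and Cxcl16 (2.29 and 2.41), and the Cxcl16 peak was nearer to an end of Med11.

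The mark without Ezh2 or Runx1 was called at Xcl1 (2.07 and 2.46), Cxcl17 (1.90 and 2.01), Ccl19, Ccl21b (2.29 and 2.00), Ccl21d (2.11 and 2.60), Cxcr1 and Cxcr2. The Cxcl17 end call rests on different peaks in the 2 replicates and was lost where these had to overlap each other. Ccl21b also had Ezh2 peaks in both replicates over its span (3.23 and 2.15), the highest of each being 15876 bp apart. That span call was kept where peaks of both replicates had to overlap each other. The 12 Ezh2 end folds had a median of 2.78 and a highest mean of 3.72, against a median of 2.96 and a 90th percentile of 6.37 over all 4033 called genes. For the mark the median was 2.17 and the highest mean 2.59, against a median of 2.29 and a 90th percentile of 2.78. No member reached the 90th percentile for either.

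The antibodies kept different shares of their calls under a stricter threshold. With a q-value of at most 0.01 in both replicates, Runx1 kept 16 of its 18 end calls (28.1% of members, against 42.6% of all genes), losing Cxcl5 and Cxcl16. Ezh2 kept 6 of 12 (10.5%, against 8.12%), at Cxcr4, Ccl27a, Cxcl10, Cxcl12, Cx3cl1 and Ccr10. The mark kept 1 of 18, Ccr10 (1.75%, against 3.04%). The peaks at Ccr10 reach its neighbours: the mark covered 6427 and 3397 bp there, and the end nearest to the middle of the replicate 2 peak was that of Cntnap1, as it was for the summit of the Ezh2 span peak of replicate 1, 530 bp away. Over the span at this threshold, 21 members had Runx1 (36.8%, against 53.3%), 10 had Ezh2 (17.5%, against 15.2%) and Ccr10 alone had the mark (1.75%, against 5.09%). At a q-value of at most 1e-05, Runx1 kept 15 end calls (26.3%, against 39.2%) and 19 span calls (33.3%, against 49%). Ezh2 was then left at Ccr10 alone, at an end (1.75%, against 4.61%) and over the span (1.75%, against 6.41%). The mark was left at no member at an end (0%, against 0.427%) or over the span (0%, against 0.547%). Replicates behaved likewise: Runx1 was at an end of 21 members in each replicate and in both at 18, with summits a median of 33.5 bp apart (3 to 145 bp). The mark was at 27 members in replicate 1 and 18 in replicate 2, and all 18 of the latter were among the 27. Ezh2 was at 16 in each and in both at 12, where the same window was required.

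The start of a gene was also looked at on its own. The RefSeq promoter table gave a start for 43 of the 57 members, and 8 of them (18.6%) had Runx1 within 1 kb of it, against 46.1% of 17492 genes. Ezh2 was within 1 kb of the start of 8 (18.6%, against 15.2%) and the mark of 15 (34.9%, against 26%). Of the 18 members with Runx1 at an end, those 8 had it at the start, Ccl22, Cxcr6, Xcr1 and Ccr2 had it at the other end, and the start of the remaining 6 was not known. At 4 of the 18, Ccl25, Xcr1, Cxcl16 and Ccr10, the summit was nearer to an end of another gene, so those calls cannot be assigned to the member rather than to its neighbour. The Cxcr6 peak was nearest to its own gene's end but centred inside the span of Fyco1, so its assignment is also unclear.

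Member promoters held few CpG pairs. Over the 50 promoters of those 43 members, each of 300 bases, the median ratio of observed to expected CpG was 0.230, against 0.567 over 21263 promoters of protein-coding genes. A ratio of at least 0.6 was reached by 6 of the 50 (12%), against 47.7%. Each promoter was classed by peaks within 1 kb of its own start. The 9 member promoters with Ezh2 had a median of 0.569 and the 41 without it 0.205, and promoters of all genes with Ezh2 had 0.571. For the mark the median was 0.549 in 16 member promoters and 0.196 in the 34 without it, against 0.433 for all genes with the mark. With Runx1 the median was 0.2496 in 8 member promoters and without it 0.220, against 0.799 for all genes with Runx1. Among printed promoters, the ratio was 0.767 at Cxcr4, 0.528 at Cxcl10, 0.220 at Cxcr3 and 0.0689 at Ccr1. The part of CpG content in the lower share of members with Runx1 was not tested.

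**Figure D3:**
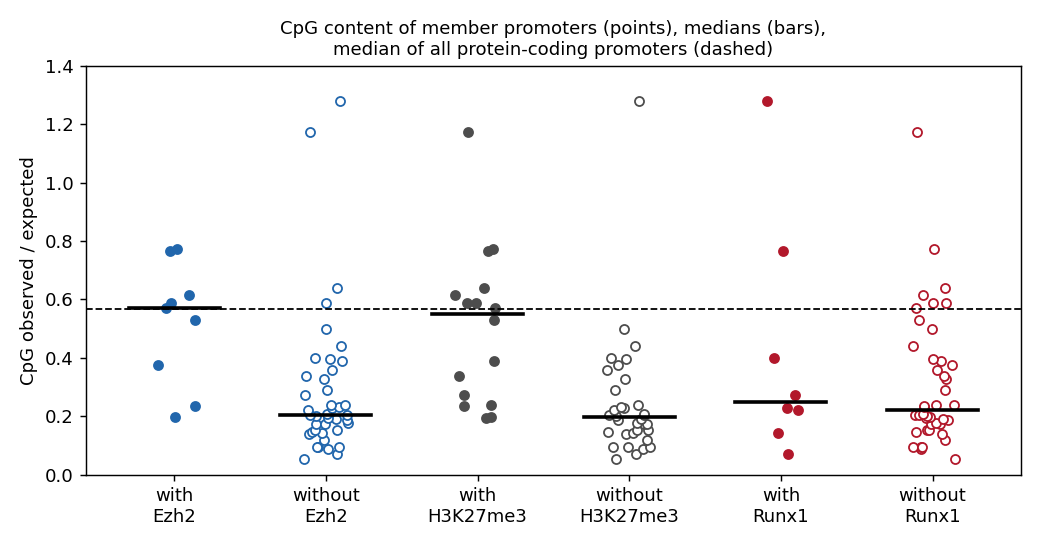
Ratio of observed to expected CpG in each of the 50 member promoters of 300 bases (points), split by whether the antibody had a peak within 1 kb of that promoter's start in both replicates, with the median of each class (bars) and of all protein-coding promoters (dashed line, 0.567); points are spread sideways only to be seen. The medians with Ezh2 (0.569) and H3K27me3 (0.549) lie above those without (0.205 and 0.196), and the 2 Runx1 classes have close medians (0.2496 and 0.220).

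A RUNX motif was present in 12 of the 50 member promoters (24%), against 21.6% of all promoters of the same length. It was in 4 of the 8 member promoters with Runx1 at the start (50%), those of Cxcr3, Ccr1, Cx3cr1 and Cxcl9, and in 8 of the 42 without (19%). At Cxcl9 the motif began 106 bp before the start, and the Runx1 peaks, inside the gene, did not reach it. Among all genes, 22.3% of the promoters with Runx1 held it. None of the 9 member promoters with Ezh2 held it, 2 of which belong to Ccl27a, against 20.2% of promoters of all genes with Ezh2. The Cxcl2, Ccl9, Ccl25 and Cxcr4 promoters had Runx1 within 1 kb and none of these letters in the 300 bases. These counts describe the letters in this window.

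Many members lie in clusters, defined here as at least 3 members with gaps of at most 200 kb. Over the 5 members from Ccl5 to Ccl4 (chr11:83525778-83664683, 139 kb), inflammatory ligands of CCR1 among them, there was no Ezh2 or H3K27me3 peak in either replicate. Over the whole of chromosome 11 such peaks covered 4.13% and 16.2% on average. Runx1 peaks covered 6.39% and 7.87% of that cluster, against a chromosome mean of 1.65%, in 24 regions found in both replicates. Of these regions 6 were centred in a member, 2 were within 1 kb of one and 16 were farther away. Ccl5, a T cell chemokine, had Runx1 folds of 4.81 and 4.57 over its span. Ccl4, a macrophage chemokine, had 3.53 and 3.97, where the highest peaks of the replicates were different ones, 6617 bp apart. A region found in both replicates within Ccl4 had folds of 3.53 and 3.32, with summits 24 bp apart. The highest region of the cluster, with folds of 41.1 and 42.7 (41.9 ± 1.18), lay 7.53 kb from Ccl3, and the next, with 22.4 and 25.4, lay 3.44 kb from Ccl9.

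The receptor cluster from Ccr9 to Ccr2 (chr9:123767211-124109140, 342 kb, 7 members) was similar. Its Ezh2 peaks covered 0.0579% and 0.133%, against a chromosome mean of 3.58%, and its H3K27me3 peaks 0.882% and 0.0602%, against 16.5%. Runx1 peaks covered 3.203% and 4.18%, against 1.06%, in 24 regions, of which 19 were more than 1 kb from any member. The highest had folds of 20.7 and 25.6 (23.2 ± 3.49) and lay 6.23 kb from Ccr3, a receptor of eosinophils with no call of its own. Another with 18.2 and 20.8 lay 2.82 kb from Cxcr6, inside the span of Fyco1.

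For members without any call, the distance to the nearest region of both replicates was measured. Of the 19 members with no call at an end or over the span, 14 (73.7%) had a Runx1 region within 10 kb, against 20.6% of all 3842 genes without any call. The median distance was 5274 bp over the 19 and 114202 bp over the 3842. For Ezh2 1 of the 19 (5.26%) was within 10 kb, against 5.62%, and for the mark 2 (10.5%), against 20.04%. Several of the 19 lie in the same clusters, and no test was made. Ccr3 was 1400 bp, Ccl2 4150 bp, Ccl6 4431 bp and Ccl3 5274 bp from such a Runx1 region. Ccl2, the main ligand of CCR2, stood in a different cluster, that from Ccl2 to Ccl1 (chr11:82035577-82179812, 144 kb, 6 members). There Runx1 covered 1.76% and 1.76%, close to the chromosome mean of 1.65%, in 5 regions, and Ezh2 and the mark covered 0.292% and 0.243% in replicate 1 and nothing in replicate 2. Ccl1, at its end, had Runx1 folds of 2.72 and 2.82 over its span.

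**Figure D4:**
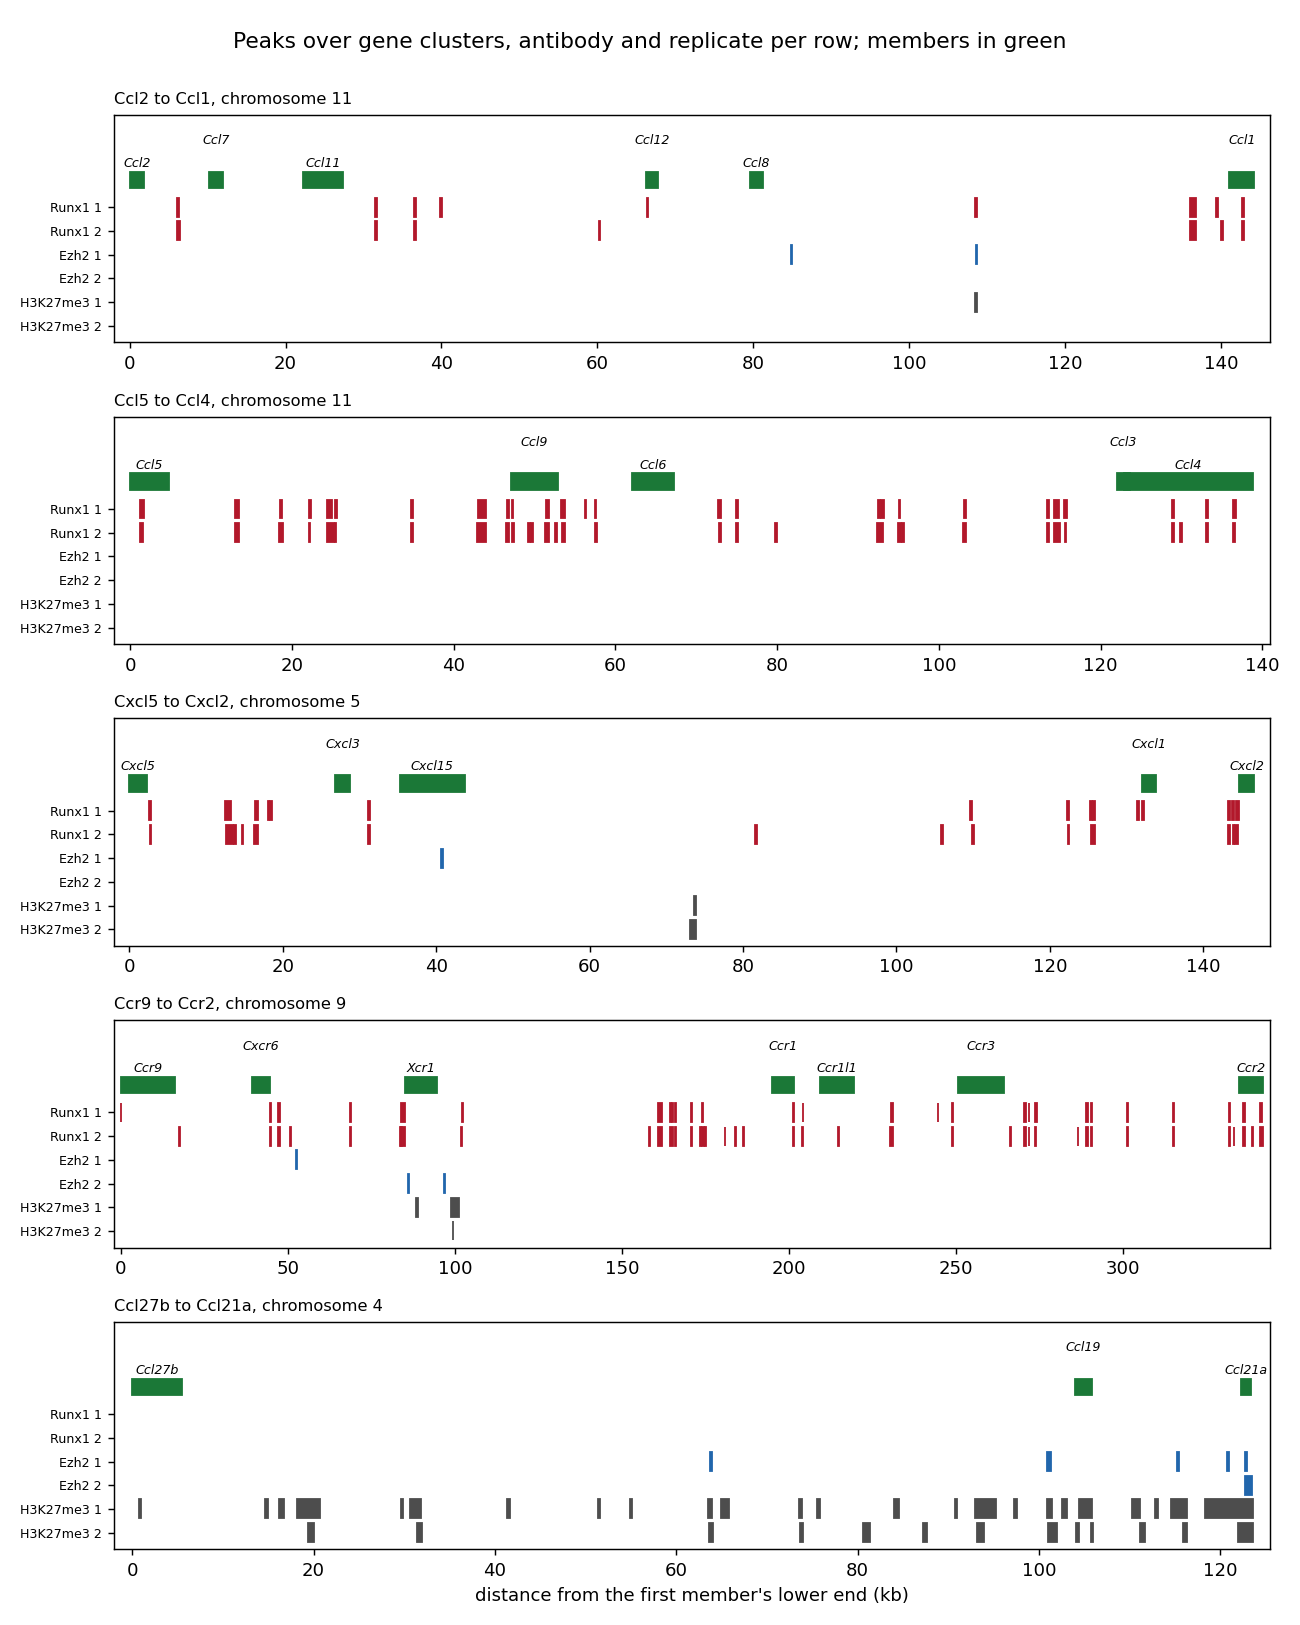
Maps of 5 member clusters, with distance from the lower end of the first member in kb; green boxes are members, and each row below shows the peaks of 1 antibody in replicate 1 or 2 (Runx1 red, Ezh2 blue, H3K27me3 grey), drawn with a minimum width so that narrow peaks can be seen. Runx1 peaks recur in both replicates across the Ccl5 to Ccl4 and Ccr9 to Ccr2 clusters, where Ezh2 and H3K27me3 rows are empty or nearly so, while the Ccl27b to Ccl21a cluster has H3K27me3 and no Runx1 peak.

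The neutrophil ligand cluster from Cxcl5 to Cxcl2 (chr5:90759298-90905938, 147 kb, 5 members) also had little of the mark. H3K27me3 covered 0.215% and 0.546%, against 10.97%, and Ezh2 0.188% and 0%. Runx1 covered 3.10% and 3.18%, against 1.12%, in 10 regions, and the highest, 9.01 and 12.2, lay 10.3 kb from Cxcl3, the nearest member. Ppbp and Pf4, which are not members by symbol, also lie in this cluster. Between Ccl22 and Ccl17 on chromosome 8 the mark covered 14.3% and 7.49%, against 10.1%, and Runx1 covered 4.06% and 3.93%, against 1.00%. The homeostatic cluster from Ccl27b to Ccl21a on chromosome 4 had no Runx1 peak in either replicate, and there the mark covered 17.3% and 6.55%, against 11.2%. The 6 members on chromosome 4 lie in a region of near-identical gene copies, where reads can be shared between copies. Among these 6, the mark was called at an end of 5 (83.3%, against 30.7% of all genes) and Ezh2 of 2 (33.3%, against 18.5%). Runx1 was called at an end of none (0%, against 45.5%). These are few genes, and the differences were not tested.

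Genes that act with the chemokines, from a list of 52 named in other ways, mostly carried Runx1. It was called at an end of 41 of 52, Ezh2 of 4 and the mark of 5, against 45.5%, 18.5% and 30.7% of all genes. Among the 35 signalling and adhesion genes, 32 had Runx1, such as Prex1, a Rac activator (154 and 123), Gnai2, the Gi subunit of leukocytes (29.3 and 26.8), Arrb2, an arrestin that turns receptors off (29.3 and 22.5), and Itgb2, the leukocyte integrin chain (16.2 and 17.0). Of 11 chemokines and receptors with other names, 7 had Runx1, among them the scavenging receptors Ackr3 (12.01 and 8.69) and Ackr4 (14.1 and 11.6), and the platelet chemokine Pf4 (6.26 and 6.58), which lies in the Cxcl5 to Cxcl2 cluster. Cmklr1, the chemerin receptor, had all 3 antibodies, and Ackr2, a scavenger of CC chemokines, had Ezh2 and the mark. Of 6 genes for homing of progenitors, Selplg and Cd44 had Runx1. The list was compiled with earlier results of these data known, and its difference from the members was not tested.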

How the data were processed

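The deposited data are 6 peak lists, 1 for each library with an antibody, and the authors did not pool replicates. Tools listed in the submitters' processing notes are MACS2 2.0.10, SAMtools, Picard and Bowtie2 2.2.1, with mm10 as the build and no role or setting for any. For every peak the authors' deposited lists give a score (not used), a fold enrichment, which is a linear ratio, and a p-value and a q-value as −log10. Ezh2 and Runx1 came as narrow peaks and H3K27me3 as broad peaks. The lists held 159007 to 178354 Ezh2, 178423 to 220455 H3K27me3 and 64059 to 66153 Runx1 peaks, down to a p-value of 0.0493 to 0.0499, so many are weak. The number of reads per library is unknown, and the input libraries were not analysed here.

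Genes came from a RefSeq table on GRCm38.p6, whose chromosome coordinates are those of mm10 and which holds no exons. Left out were 113 protein-coding genes whose rows lie on sequences outside the assembled chromosomes. Starts and promoters came from RefSeq's promoter table, which matched 43 of the 57 members. An overlap of at least 1 bp counted. Regions of both replicates were merged peaks to which both lists contributed, and coverage is the percentage of bases under peaks. SDs are over 2 replicates. The gene calls were checked on simulated data. Python 3.11.15, pandas 2.3.3, numpy 2.4.6 and matplotlib 3.10.9 were used.

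The text names every member called at an end for Runx1 or Ezh2 or for at least 2 antibodies, the members with the 12 highest H3K27me3 folds, up to 8 members per antibody called over the span alone, and Ccr7, Ccr9, Cxcr4, Ccr2, Ccl19, Ccl21a, Ccl25, Cxcl12 and Ccl2. A single member, counted among the 57 but left out of the clusters, is not reported here by name. Other members were named after their values were seen. The members and lists were chosen with earlier results of these data known. Stricter q-values, the 10000 strongest peaks, other windows and overlaps, and single replicates were tried. Counts without the 6 members on chromosome 4, and with both antibodies at the same end, were added after the data were seen.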

Additional observations from a re-analysis of the deposited data

How the results depend on the processing

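Of 81 counts recomputed, 53 stayed within 1.5 times the reported count. With a q-value of at most 0.01, H3K27me3 fell to 1 member at ends and 1 over spans and Ezh2 to 6 at ends, leaving 1 member with Ezh2 and the mark, 1 with Runx1 and the mark and 2 with Runx1 and Ezh2. At 1e-05 the mark was at 0 members at ends and over spans, Ezh2 at 1 and 1, and the pairs at 0, 0 and 1, with 42 members without an antibody at an end. The 10000 strongest peaks of each list gave Ezh2 2 and 4, H3K27me3 1 and 1, Runx1 3 and 6, the pairs 1, 1 and 1, and 53 members without an antibody. Shares over all genes were not computed at this setting, for single replicates or for the same end. Whether such changes are particular to the members is therefore unknown. Runx1 within 1 kb of the start alone was at 8 of 43 members with a start. Requiring both antibodies at the same end left 3 members with Runx1 and Ezh2.

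Single replicates gave 16 to 16 Ezh2, 18 to 27 H3K27me3 and 21 to 21 Runx1 calls at ends, 16 to 17, 20 to 28 and 25 to 26 over spans, 13 to 16 members with Ezh2 and the mark, 5 to 7 with Runx1 and the mark, 5 to 7 with Runx1 and Ezh2 and 16 to 22 with no antibody. Without replicate 2, Runx1 and the mark rose from 4 to 7 members and those with no antibody fell from 25 to 16. Every count without the 6 members on chromosome 4 stayed within 1.5 times.

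Cluster coverage moved by more than the replicate SD in 18 of 36 values. At a q-value of at most 0.01 and then 1e-05, Runx1 covered 1.42% and 1.06% from Ccl2 to Ccl1, 1.73% and 1.38% from Cxcl5 to Cxcl2 and 3.69% and 3.44% from Ccl22 to Ccl17. At 1e-05 it covered 4.76% from Ccl5 to Ccl4 and 2.85% from Ccr9 to Ccr2. H3K27me3 from Ccl27b to Ccl21a fell to 0.574% and 0%, from Cxcl5 to Cxcl2 and from Ccl22 to Ccl17 to 0% and 0%. Ezh2 fell to 0.273% and 0% from Ccl27b to Ccl21a and to 0% and 0% from Ccr9 to Ccr2. Stricter thresholds leave fewer peaks, and no other cause was tested. No paired analysis was possible because the results come from no test and replicate numbers are not stated to pair libraries of different antibodies. The unknown depth limits what a missing peak shows, since a peak can be missed where a library is shallow.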
